A study of Mus musculus with 16 samples.

Results

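The 8 genes described here are the 3 phosphofructokinase isoforms of the mouse (Pfkl, Pfkm and Pfkp), 3 of the bifunctional enzymes that set their main activator (Pfkfb2, Pfkfb3 and Pfkfb4), and the opposing phosphatases Tigar and Fbp1. They were taken by gene symbol from the 53801 genes of the deposited count table, and all 8 were present and passed the filter on low counts that kept 13774 genes. RNA was sequenced from a mouse MLL-AF9 acute myeloid leukemia cell line carrying an inducible Cas9, grown in RPMI with serum, IL-3 and SCF. Cas9 was switched on by 4-OHT in all groups, the controls included. The control cells carried a non-targeting guide RNA, and the MCT4-KO cells carried CRISPR edits of MCT4, the lactate and proton exporter encoded by Slc16a3. Each genotype was kept at 20% or at 2% oxygen, with 4 libraries in each of the 4 groups. The labels do not say whether the knockout cells were a pool or a clone, how long the cells were kept at each oxygen level, or whether libraries came from separate cultures, so p-values reflect only how far these libraries scatter, and that scatter may be technical.

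Phosphofructokinase phosphorylates fructose 6-phosphate to fructose 1,6-bisphosphate, the committed and most tightly controlled step of glycolysis. The enzyme works as tetramers of liver-type (PFKL), muscle-type (PFKM) and platelet-type (PFKP) subunits, is inhibited by ATP, citrate and protons, and is activated strongly by fructose 2,6-bisphosphate. That activator is made and destroyed by the PFKFB enzymes, which carry a kinase and a phosphatase domain in one chain: PFKFB3 acts almost only as a kinase, and PFKFB4 and PFKFB2 are more balanced. TIGAR, named in human cells as a p53-induced gene, removes the activator, and FBP1 reverses the phosphofructokinase step in gluconeogenesis. Several of these genes are known targets of the hypoxia-inducible factors, which bind the core letters ACGTG or GCGTG.

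Promoter sequences of the 6 members that held these letters are shown first. These 6 all responded to low oxygen, as did 78.3% of all tested genes in control and 76.4% in MCT4-KO cells. Tigar responded too but is not shown, since its promoter did not hold the letters. Whether the letters had a part in any response was not tested. RefSeq promoter windows (GRCm38) of 250 bases before each annotated start were available for all 8 genes, 14 windows in all. Both strands were searched, so that CACGT and CACGC were also matches, and the palindrome CACGTG counts as a match on each strand. At least 1 window of 6 members held a match, and no window of Tigar or Fbp1 did. Such matches were common: 38.6% of 32817 windows of all genes held at least 1, as did 41.5% of 26994 genes and 63.9% of windows with a GC content of 60% or more. A match describes letters in a window and not binding. The 4 windows below belong to genes of the minus strand, are printed 5′ to 3′ in the direction of the gene, and have the matches in capitals.
Pfkl, chr10:78009808-78010057: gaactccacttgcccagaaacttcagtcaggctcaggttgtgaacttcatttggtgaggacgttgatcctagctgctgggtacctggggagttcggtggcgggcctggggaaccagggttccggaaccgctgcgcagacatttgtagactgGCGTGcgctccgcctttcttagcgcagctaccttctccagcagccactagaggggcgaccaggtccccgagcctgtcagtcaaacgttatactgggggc
Pfkp, chr13:6648772-6649021: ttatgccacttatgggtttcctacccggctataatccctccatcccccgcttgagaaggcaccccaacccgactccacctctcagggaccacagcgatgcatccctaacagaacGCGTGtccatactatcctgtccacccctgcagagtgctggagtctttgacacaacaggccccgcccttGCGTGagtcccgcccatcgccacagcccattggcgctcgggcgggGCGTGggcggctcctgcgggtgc
Pfkfb3, start of the shorter transcripts, chr2:11502091-11502340: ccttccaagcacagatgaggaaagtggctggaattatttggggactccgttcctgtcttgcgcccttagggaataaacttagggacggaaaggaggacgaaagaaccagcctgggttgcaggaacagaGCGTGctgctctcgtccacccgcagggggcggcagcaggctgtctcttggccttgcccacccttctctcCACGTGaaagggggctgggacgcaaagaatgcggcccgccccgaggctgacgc
Pfkfb2, chr1:130715822-130716071: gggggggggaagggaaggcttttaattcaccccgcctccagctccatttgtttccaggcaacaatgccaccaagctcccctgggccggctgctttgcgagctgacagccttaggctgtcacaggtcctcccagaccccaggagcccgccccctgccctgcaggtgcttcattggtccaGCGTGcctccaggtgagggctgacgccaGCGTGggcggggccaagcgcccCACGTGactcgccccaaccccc
GENCODE places 53 bases of the Pfkl window, 6 of the Pfkp window, 11 of the Pfkfb3 window and 0 of the Pfkfb2 window in exons. The Pfkl window held 1 match, the Pfkp and Pfkfb3 windows 3 each, and the Pfkfb2 window 4, although Pfkfb2 fell at low oxygen. For Pfkfb3 and Pfkfb2 the window with the most matches is shown, and their windows at other starts held 1 match each. Of all windows, 16.7% held at least 2 matches and 6.6% at least 3. Of windows with a GC content of 60% or more, 33.5% held at least 2. For Pfkfb4 and Pfkm, which are on the plus strand, only the 29 bases around 1 match are shown; the Pfkfb4 match lies inside an exon whose start GENCODE places further upstream than RefSeq does.
Pfkfb4, chr9:108991773-108991801: ttgacggatgggGCGTGcttagtccaaaa
Pfkm, most upstream start, chr15:98092442-98092470: attaagtatgccACGTGaagtaagtaatt

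Libraries held 21192179 to 28871459 estimated counts, and levels are given as CPM, that is counts scaled to a fixed library total, after TMM scaling. Slc16a3 fell from 184 to 235 CPM in the control libraries to 70.4 to 94.7 CPM in the MCT4-KO libraries at 20% oxygen, and from 789 to 844 CPM to 358 to 370 CPM at 2% oxygen, so all libraries bore out their labels although the transcript was not lost. All 11 myeloid markers reached 1 CPM in at least 1 library, though Csf1r had group means of only 0.486 to 1.415 CPM. The summed T cell and B cell markers stayed at or below 0.0943 and 0.329 CPM. The defining markers Cd3e, Trbc2, Cd4, Col1a2, Dcn, Cdh5 and Kdr were at 0 in all libraries. Of 4 endothelial markers only Pecam1, which leukocytes also carry, reached 1 CPM, and the 4 summed to 179 to 301 CPM. The group means of Pecam1 were 182 and 184 CPM in control and MCT4-KO cells at 20% oxygen and 291 and 262 CPM at 2%. Summed stromal markers had 0.869 to 2.26 CPM, with Pdgfrb at 1.80 CPM at most as a group mean, and summed erythroid markers 1.17 to 3.35 CPM. The part of these markers in the results was not tested. The first principal component, which separated the oxygen levels, held 82.9% of the variance. Control replicate 4 at 2% oxygen stood apart from the other 3 libraries of its group, with a chi-square per gene of 8.09 to 11.95 against them and of 2.49 to 3.23 among them. None of the members' calls changed without it. Without it, the difference between genotypes at 2% oxygen went from -0.13 to -0.16 on the log2 scale for Pfkfb3, from -0.25 to -0.24 for Pfkl and from 0.38 to 0.39 for Tigar. The 20% groups were uneven too. Their chi-square per gene between libraries was 3.36 to 8.57 in control and 2.41 to 7.19 in MCT4-KO cells.

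Low oxygen moved 7 of the 8 genes in each genotype, and the knockout moved fewer of them and by less. At 2% against 20% oxygen, Pfkl, Pfkm, Pfkp, Pfkfb3 and Pfkfb4 rose and Pfkfb2 and Tigar fell in control and in MCT4-KO cells, by edgeR's quasi-likelihood test at an adjusted p under 0.05. The background was high: this rule called 78.3% of all tested genes in control cells (38.7% higher and 39.6% lower) and 76.4% in MCT4-KO cells (37.7% higher and 38.7% lower). Other measures moved with oxygen too. The mitochondrial share of counts was 0.605 to 0.984% in control and 0.645 to 0.801% in MCT4-KO libraries at 20% oxygen, with means of 0.299 ± 0.04% and 0.379 ± 0.04% at 2%, and the oxygen levels did not overlap. Summed myeloid markers had 2971 to 3285 CPM at 20% and 5846 to 6311 CPM at 2% oxygen. Most of that rise was the granule gene Elane. It went from 693 to 3794 CPM in control and from 826 to 3635 CPM in MCT4-KO cells. As group means Mpo, Itgam and Fcgr3 also rose in both genotypes. Ptprc, Spi1, Cebpa, Kit, Csf1r, Hoxa9 and Meis1 fell in both, for example Hoxa9 from 449 to 263 CPM in control cells. Their part in the members' changes was not tested. In MCT4-KO against control cells at 20% oxygen, 1 member was higher and 1 lower, against 9.76% of all tested genes called (4.96% higher and 4.8% lower). At 2% oxygen 1 was higher and 3 were lower, against 38.4% of all tested genes (19.4% higher and 19.1% lower). The knockout effect differed between the oxygen levels for 3 members, against 22.9% of all tested genes (11.6% higher and 11.3% lower). Groups did not overlap for 14.6% of all tested genes between genotypes at 20% oxygen and for 37% at 2% oxygen, and for 70.2% and 72.4% between oxygen levels in control and MCT4-KO cells; single members whose groups are apart are to be read against these shares. The members' median log2 change was 0.81 for low oxygen in control cells and 0.69 in MCT4-KO cells, where the medians of all tested genes were -0.02 and -0.01. The low-oxygen comparisons of both genotypes and the knockout comparisons at both oxygen levels share libraries, so they are not independent of each other.

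**Figure D1:**
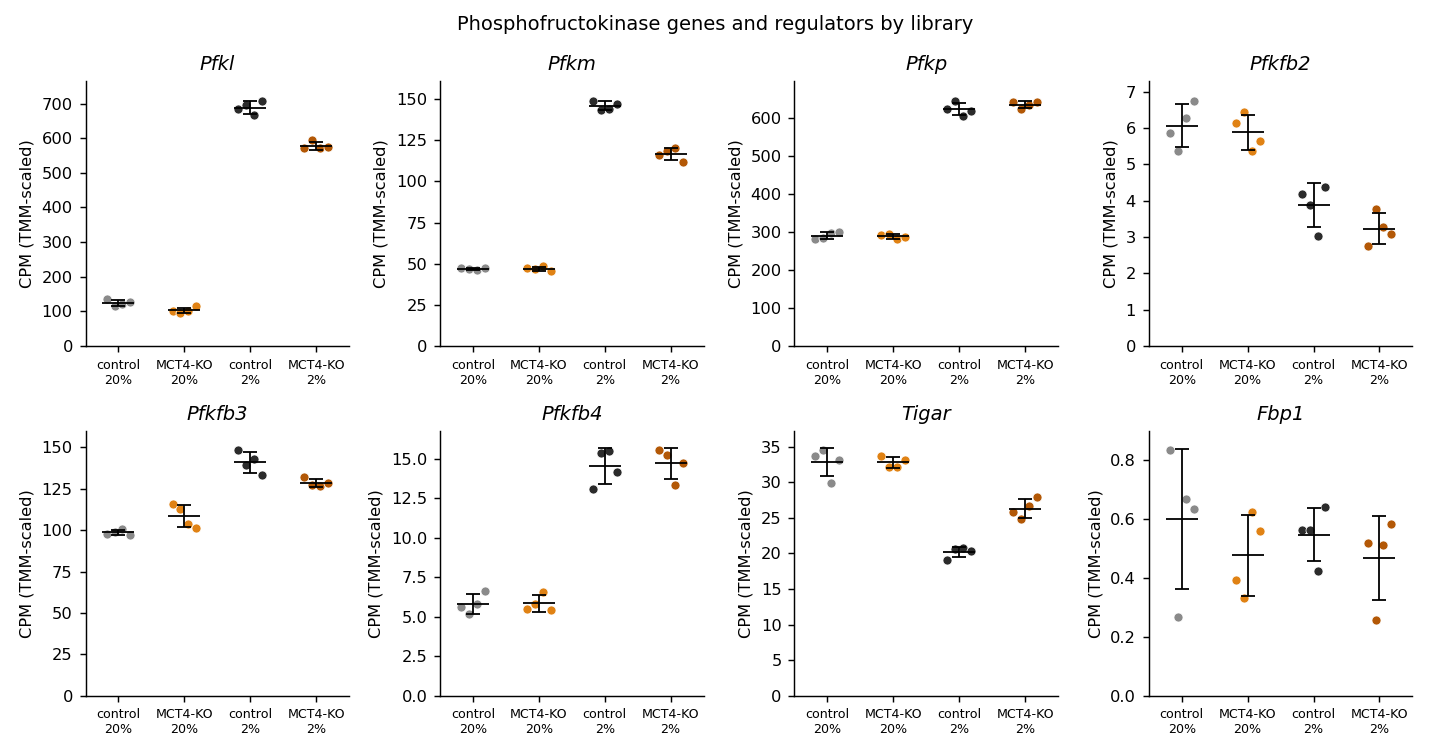
Level of each of the 8 genes in every library, in TMM-scaled CPM on axes that start at 0, for control (grey and black) and MCT4-KO (orange and brown) cells at 20% and 2% oxygen; points are libraries and black marks are the mean ± SD of 4. The 2% libraries of Pfkl, all at 571 CPM or above, lie far over the 20% libraries, all at 136 CPM or below, while the 4 groups of Fbp1 overlap.

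**Figure D2:**
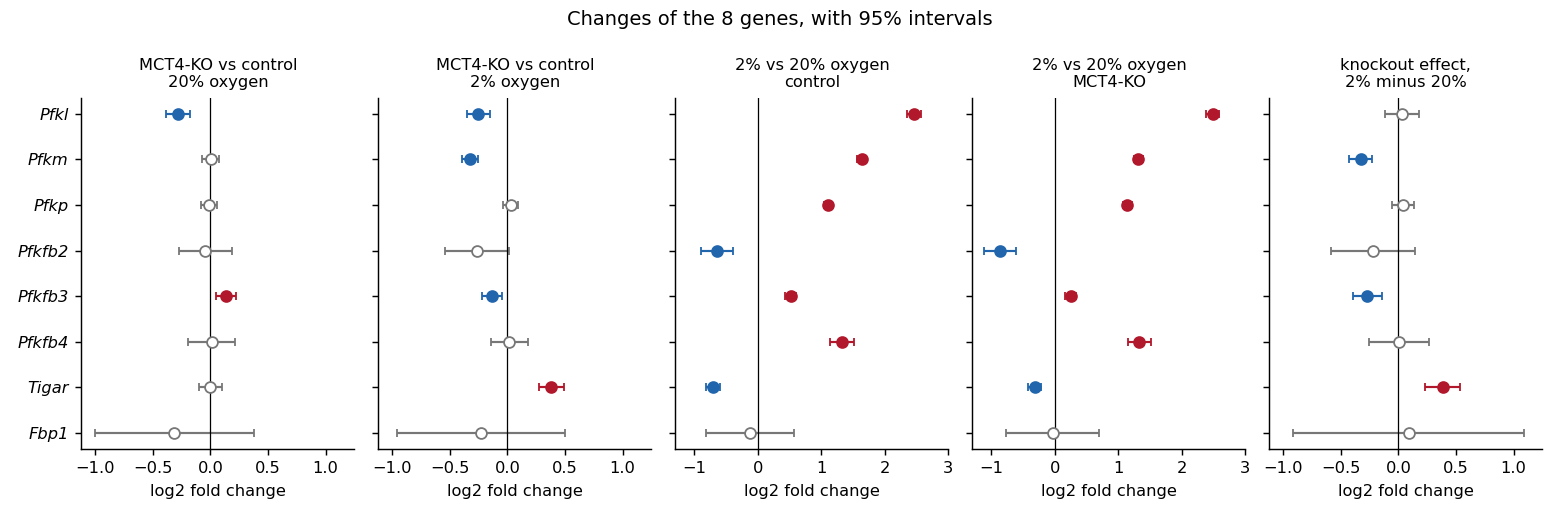
Log2 fold change of each gene (x axis) in the 5 comparisons, with 95% confidence intervals; filled red and blue points are called higher and lower, and open grey points are not called, and the scale of the x axis is wider in the low oxygen panels. Intervals in the low oxygen panels exclude 0 for every gene but Fbp1.

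Pfkl, the liver-type subunit (chr10:77986947-78010083, minus strand, GRCm38), changed most. Control libraries at 20% oxygen had 136, 117, 121 and 128 CPM, and those at 2% oxygen had 684, 696, 666 and 708 CPM. MCT4-KO libraries had 100.1, 96.7, 101 and 115 CPM at 20% and 572, 595, 571 and 573 CPM at 2% oxygen. Every 2% library was thus far above every 20% library, and every MCT4-KO library was below every control library at the same oxygen level. The rise with low oxygen was 5.49-fold in control cells (log2 2.46 ± 0.05 SE, edgeR adjusted p = 8.74e-20) and 5.59-fold in MCT4-KO cells (log2 2.48 ± 0.05, edgeR adjusted p = 1.21e-19). By size of rise in control cells it ranked 342 among 13774 tested genes.

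Pfkl was also the one member that was lower in MCT4-KO cells at both oxygen levels, a result shared with 2.15% of all tested genes. It fell by 0.28 ± 0.05 on the log2 scale at 20% oxygen (edgeR adjusted p = 9.89e-04) and by 0.25 ± 0.05 at 2% oxygen (edgeR adjusted p = 2.34e-04). These falls are small beside the oxygen response, and the difference between them did not pass the test (0.03, 95% interval -0.12 to 0.17, edgeR adjusted p = 0.81). An exact permutation test, two-sided, of 4 libraries against 4 gave p = 0.0286 for each, which is the smallest that its 70 splits allow.

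Pfkm, the muscle-type subunit (chr15:98092589-98132451, plus strand), had the same level in both genotypes at 20% oxygen to within the spread, and not at 2%. Its levels at 20% oxygen were 47.5, 46.6, 46.2 and 47.5 CPM in the control libraries and 47.3, 46.8, 48.4 and 45.5 CPM in MCT4-KO libraries. At 2% oxygen they were 149, 143, 144 and 147 CPM in control libraries and 116, 119, 120 and 112 CPM in MCT4-KO libraries. The genotypes overlapped fully at 20% oxygen and were separated by a wide gap at 2% oxygen. Low oxygen raised Pfkm 3.11-fold in control cells (log2 1.64 ± 0.03, edgeR adjusted p = 6.79e-20) and 2.48-fold in MCT4-KO cells (log2 1.31 ± 0.03, edgeR adjusted p = 2.23e-18). The knockout effect was 0.00 (95% interval -0.07 to 0.07) at 20% oxygen and -0.32 ± 0.03 at 2% oxygen (edgeR adjusted p = 1.65e-07), and its difference of -0.33 ± 0.05 between the oxygen levels passed the test (edgeR adjusted p = 6.03e-05).

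Pfkp, the platelet-type subunit (chr13:6579768-6648777, minus strand), responded to oxygen and showed no call between genotypes. Control libraries had 281.5, 285, 299 and 299.6 CPM at 20% and 625, 646, 607 and 619 CPM at 2% oxygen. MCT4-KO libraries had 293, 294, 281 and 287 CPM at 20% and 642, 624, 635 and 644 CPM at 2% oxygen. The genotypes overlapped at each oxygen level, and the oxygen levels did not overlap. The rise was 2.15-fold in control cells (log2 1.10 ± 0.03, edgeR adjusted p = 1.43e-17) and 2.20-fold in MCT4-KO cells (log2 1.14 ± 0.03, edgeR adjusted p = 1.04e-17). The interval of the knockout effect was -0.08 to 0.06 at 20% and -0.04 to 0.09 at 2% oxygen, on the log2 scale. Exons of Pfkp share 748 bases with Pitrm1 on the opposite strand, and since the strand setting of the counting is not given, reads there may have been divided wrongly. Pitrm1 had 64.0 to 95.4 CPM as group means and fell with low oxygen (log2 -0.51 in control and -0.22 in MCT4-KO cells), opposite to Pfkp. At 2% oxygen Pitrm1 was higher in MCT4-KO than in control cells (log2 0.36, edgeR adjusted p = 8.27e-06). Its part in the Pfkp counts was not tested.

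Because the 3 subunits rose by different amounts, their make-up changed. Levels between genes were compared as CPM per kilobase of the union of exons. The summed level of Pfkl, Pfkm and Pfkp was 54.6 ± 1.4 CPM per kilobase (SD, n = 4) in control cells at 20% oxygen and 193 ± 3.7 at 2% oxygen, a 3.54-fold rise. In MCT4-KO cells it was 51.1 ± 0.8 and 169 ± 1.7, a 3.31-fold rise. The share of Pfkl in that sum went from 34.4 ± 1.6% to 53.3 ± 0.5% in control cells and from 30.3 ± 1.8% to 51.2 ± 0.6% in MCT4-KO cells. Pfkp moved the other way, from 39.8 ± 1.4% to 24.1 ± 0.5% in control cells and from 42.2 ± 1.2% to 28.1 ± 0.7% in MCT4-KO cells. By this length Pfkp had the largest share in every 20% library but none of the 2% libraries, where Pfkl led. At 2% oxygen the libraries of the genotypes did not overlap: the Pfkl share was 52.9 to 54.1% in control and 50.7 to 52.0% in MCT4-KO libraries, and the Pfkp share 23.5 to 24.7% and 27.2 to 28.7%.

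These shares depend on the length used, since the exon union of Pfkp is 13401 bases and that of Pfkm 3340, while the coding sequences are nearly equal (2352 and 2340 bases). Per kilobase of coding sequence, Pfkl went from 27.1 ± 1.5% to 47.3 ± 0.6% in control cells and from 23.6 ± 1.5% to 43.5 ± 0.7% in MCT4-KO cells, and Pfkp from 62.7 ± 1.6% to 42.7 ± 0.6% and from 65.7 ± 1.3% to 47.7 ± 0.8%. Per kilobase of the longest transcript, Pfkl had 40.3 ± 1.7% and Pfkp 40.2 ± 1.5% in control cells at 20% oxygen, with overlapping libraries. The rise of the Pfkl share and the fall of the Pfkp share with low oxygen were present with all 3 lengths, whereas which gene led depended on the length in control cells at 20% oxygen and in MCT4-KO cells at 2% oxygen. The share of Pfkm by coding length was 10.17 ± 0.22% and 10.03 ± 0.26% in control cells at 20% and 2% oxygen, within its spread, and 10.8 ± 0.4% and 8.78 ± 0.28% in MCT4-KO cells. By exon union it went from 25.8 ± 0.5% to 22.6 ± 0.5% in control cells and from 27.6 ± 1.1% to 20.7 ± 0.5% in MCT4-KO cells. By the longest transcript it went from 19.6 ± 0.4% to 16.5 ± 0.4% and from 21.1 ± 0.9% to 15.1 ± 0.4%, so that its fall in control cells depended on the length.

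**Figure D3:**
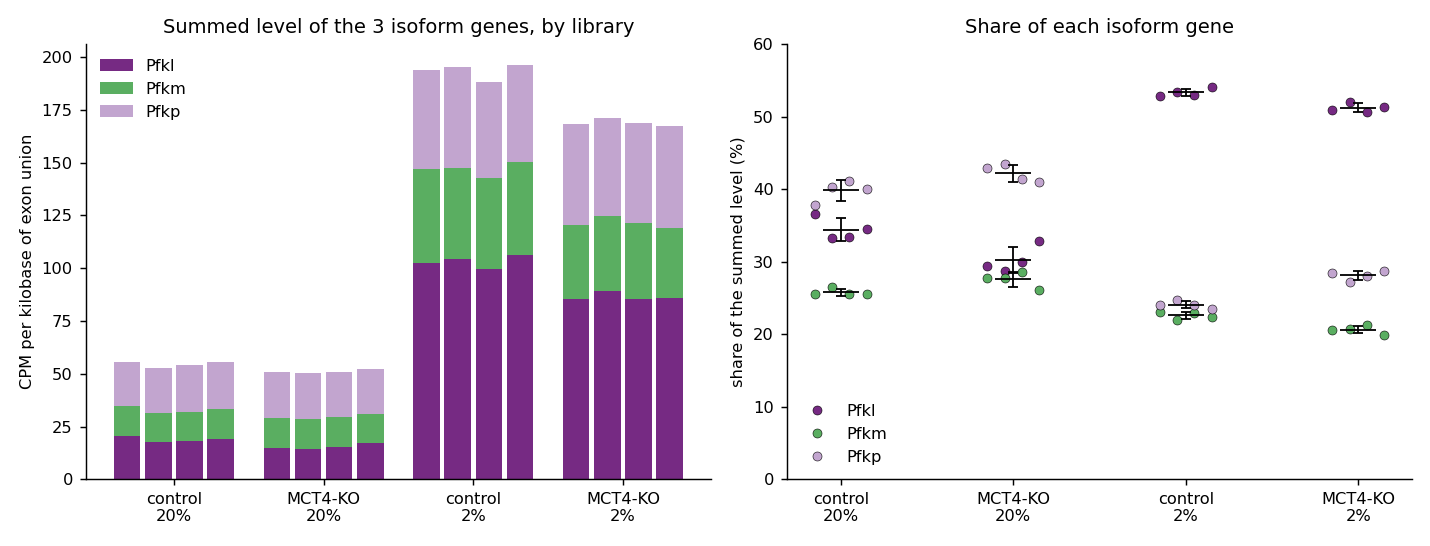
Left, stacked bars of the level of Pfkl, Pfkm and Pfkp in each of the 16 libraries, in CPM per kilobase of exon union; right, the share of each gene in that sum in percent, with points for libraries and black marks for the mean ± SD of 4. The Pfkl share is 33.2 to 36.6% in control libraries at 20% oxygen and 52.9 to 54.1% at 2% oxygen.

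Pfkfb3 (chr2:11471433-11554077, minus strand), the kinase-dominant enzyme, was the most abundant of the PFKFB genes per length and the only member whose knockout effect was called in opposite directions at the 2 oxygen levels. At 20% oxygen it had 97.6, 99.02, 101 and 97.3 CPM in control libraries and 116, 113, 104 and 102 CPM in MCT4-KO libraries. At 2% oxygen it had 148, 139, 143 and 133 CPM in control libraries and 132, 127, 127 and 128 CPM in MCT4-KO libraries. MCT4-KO libraries lay above all control libraries at 20% and below all of them at 2% oxygen, each time by a narrow gap. The knockout effect was 0.14 ± 0.04 at 20% oxygen (edgeR adjusted p = 0.0383) and -0.13 ± 0.04 at 2% oxygen (edgeR adjusted p = 0.0131), on the log2 scale. Its change between the oxygen levels was -0.27 ± 0.06 (edgeR adjusted p = 0.00205). Of all tested genes, 1.24% were called in both with opposite signs.

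The 20% call of Pfkfb3 was lost in 7 of the 16 fits that left out 1 library, with an adjusted p of 0.0502 to 0.126: those without any 1 of the 4 control libraries or MCT4-KO replicate 1 or 2 at 20% oxygen, or MCT4-KO replicate 3 at 2% oxygen. The 2% call was lost without control replicate 1 at 2% oxygen (-0.11, adjusted p = 0.0519). The 20% call was also lost with the compared groups alone (adjusted p = 0.0729), and the 2% call with library sizes alone (-0.09, adjusted p = 0.079). The test of the difference passed in all fits that left out 1 library. Low oxygen raised Pfkfb3 1.43-fold in control cells (log2 0.52 ± 0.04, edgeR adjusted p = 2.85e-10) and 1.19-fold in MCT4-KO cells (log2 0.25 ± 0.04, edgeR adjusted p = 1.40e-05). Scaling by library size alone, which moved the median of all genes to -0.22 and -0.19, gave 0.31 and 0.07, and the second was then not called (adjusted p = 0.135).

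Pfkfb4 (chr9:108991778-109032228, plus strand), a bifunctional enzyme known to be induced by hypoxia, was low but rose in every library. It had 5.59, 5.18, 5.78 and 6.64 CPM in control libraries and 5.52, 5.84, 6.58 and 5.45 CPM in MCT4-KO libraries at 20% oxygen. At 2% oxygen it had 13.1, 15.4, 15.5 and 14.2 CPM in control libraries and 15.5, 15.2, 13.3 and 14.8 CPM in MCT4-KO libraries. The genotypes overlapped at both oxygen levels. The rise was 2.50-fold in control cells (log2 1.32 ± 0.08, edgeR adjusted p = 7.55e-12) and 2.51-fold in MCT4-KO cells (log2 1.33 ± 0.08, edgeR adjusted p = 6.73e-12), with an interval of -0.26 to 0.26 for the difference.

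Pfkfb2 (chr1:130689182-130729253, minus strand), the heart-type enzyme, fell with low oxygen. It had 5.87, 5.37, 6.27 and 6.76 CPM in control libraries and 6.13, 6.43, 5.37 and 5.63 CPM in MCT4-KO libraries at 20% oxygen. At 2% oxygen it had 4.19, 3.89, 3.02 and 4.39 CPM in control libraries and 2.76, 3.77, 3.29 and 3.09 CPM in MCT4-KO libraries. Every 2% library was below every 20% library, and the genotypes overlapped. The log2 change was -0.64 ± 0.12 in control cells (edgeR adjusted p = 3.79e-05) and -0.86 ± 0.12 in MCT4-KO cells (edgeR adjusted p = 1.22e-06). The knockout effect at 2% oxygen was -0.26 ± 0.13 and not called (edgeR adjusted p = 0.11), and it was called without control replicate 3 at 2% oxygen (-0.36, adjusted p = 0.0283). Pfkfb2 shares exon bases with Gm29427 (1262 bases, same strand, at 0 CPM in all groups) and Yod1 (154 bases, opposite strand). Yod1 moved like Pfkfb2, with log2 changes of -0.66 and -0.83, and its part in the Pfkfb2 counts was not tested.

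Tigar (chr6:127085116-127109557, minus strand), the phosphatase that lowers the activator, fell with low oxygen, as Pfkfb2 did, while Pfkfb3 and Pfkfb4 rose. It had 33.6, 34.5, 30.0 and 33.1 CPM in control libraries and 33.7, 32.2, 32.2 and 33.2 CPM in MCT4-KO libraries at 20% oxygen. At 2% oxygen it had 19.1, 20.6, 20.7 and 20.3 CPM in control libraries and 25.8, 24.8, 26.7 and 27.98 CPM in MCT4-KO libraries. The genotypes overlapped at 20% oxygen, and all MCT4-KO libraries were above all control libraries at 2% oxygen. Low oxygen lowered Tigar by 0.70 ± 0.05 on the log2 scale in control cells (edgeR adjusted p = 5.05e-11), and the log2 change in MCT4-KO cells was -0.32 ± 0.05 (edgeR adjusted p = 4.24e-06), or -0.50 with library sizes alone. At 2% oxygen Tigar was 1.30-fold higher in MCT4-KO than in control cells (log2 0.38 ± 0.05, edgeR adjusted p = 8.73e-06), and at 20% oxygen the interval of the difference was -0.10 to 0.10. The change of the knockout effect between oxygen levels was 0.38 ± 0.07 (edgeR adjusted p = 5.07e-04).

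Pfkm, Pfkfb3 and Tigar were thus the 3 members with a knockout effect that depended on oxygen, and at 2% oxygen Pfkm and Pfkfb3 were lower and Tigar higher in MCT4-KO cells. The ratio of each PFKFB gene to Tigar, per kilobase of exon union, shows how these changes add up at the RNA level. On the log2 scale the Pfkfb3 to Tigar ratio was 0.54 ± 0.11 (SD, n = 4) in control cells at 20% oxygen, 0.68 ± 0.09 in MCT4-KO cells at 20%, 1.76 ± 0.10 in control cells at 2%, and 1.24 ± 0.08 in MCT4-KO cells at 2%. The 2% libraries of the genotypes did not overlap (1.67 to 1.91 and 1.15 to 1.31), whereas those at 20% did. The gap at 2% follows from Pfkfb3 and Tigar, which were already apart in opposite directions, and adds no separate evidence. The Pfkfb4 to Tigar ratio was -2.92 ± 0.19 and -2.91 ± 0.15 at 20% oxygen in control and MCT4-KO cells, and -0.89 ± 0.07 and -1.25 ± 0.15 at 2%. Pfkfb4 itself differed between genotypes at 2% oxygen by only 0.02 on the log2 scale, so this gap reflects Tigar. For Pfkfb2, which fell together with Tigar, the ratio in control cells was -3.42 ± 0.20 at 20% and -3.38 ± 0.27 at 2% oxygen, within the spread. In MCT4-KO cells it was -3.47 ± 0.12 and -4.02 ± 0.23. The position of a ratio depends on the gene lengths used, and differences between groups do not. Protein amounts and enzyme activities were not measured.

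**Figure D4:**
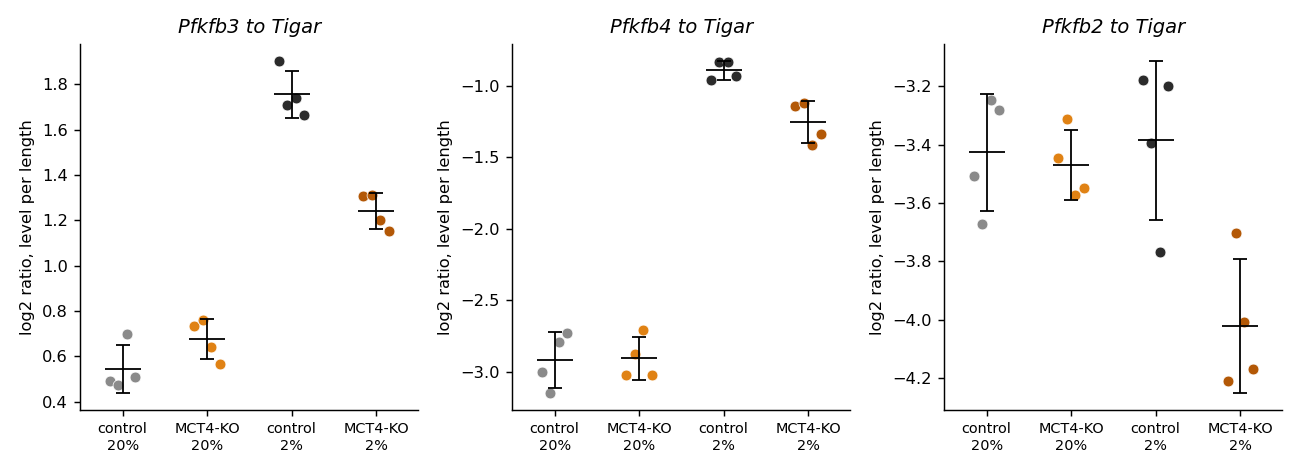
Log2 ratio of Pfkfb3, Pfkfb4 and Pfkfb2 to Tigar, each as CPM per kilobase of exon union, in every library; points are libraries, black marks the mean ± SD of 4, and each panel has its own y axis, which does not start at 0. The Pfkfb3 ratio is 1.67 to 1.91 in control and 1.15 to 1.31 in MCT4-KO libraries at 2% oxygen.

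Fbp1 (chr13:62864753-62888282, minus strand), the gluconeogenic phosphatase of liver and kidney, was close to the limit of detection. It had 6 to 21 counts in a library, or 0.257 to 0.833 CPM, and all 4 groups overlapped. No comparison called it, and the intervals were wide, for example -0.82 to 0.57 on the log2 scale for low oxygen in control cells. A difference within these bounds was not excluded at this depth. Fbp2, the muscle-type relative, had 0 counts in all 16 libraries, which allows up to 3 counts a library, on average 0.124 CPM.

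Pfkfb1, the liver-type relative of the PFKFB genes and not one of the 8, was low too. It had 2.00 to 2.76 CPM in control libraries and 2.22 to 2.79 CPM in MCT4-KO libraries at 20% oxygen, 2.50 to 2.74 CPM in control libraries at 2%, and 3.82 to 4.14 CPM in MCT4-KO libraries at 2% oxygen. Only the last group stood above the others. The knockout effect was 0.61 ± 0.11 on the log2 scale at 2% oxygen (edgeR adjusted p = 2.82e-04) and 0.05 ± 0.12 at 20% oxygen. The difference of the effects, 0.56 ± 0.16, passed the test (edgeR adjusted p = 0.0176), and did not without a count filter (adjusted p = 0.0567). Exons of Pfkfb1 share 123 bases with Apex2 on the opposite strand.

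Per kilobase of exon union the order in control cells at 20% oxygen was Pfkp (21.7 ± 0.7), Pfkl (18.8 ± 1.3), Pfkm (14.1 ± 0.2), Pfkfb3 (13.0 ± 0.2), Tigar (8.96 ± 0.54), Pfkfb4 (1.19 ± 0.13), Pfkfb2 (0.836 ± 0.081) and Fbp1 (0.353 ± 0.140). At 2% oxygen it was Pfkl (103 ± 2.7), Pfkp (46.6 ± 1.2), Pfkm (43.7 ± 0.8), Pfkfb3 (18.6 ± 0.8), Tigar (5.52 ± 0.20), Pfkfb4 (2.98 ± 0.23), Pfkfb2 (0.534 ± 0.084) and Fbp1 (0.321 ± 0.053). Neighbours in these orders differed by more than their SDs. In MCT4-KO cells at 20% oxygen Pfkl (15.5 ± 1.2), Pfkfb3 (14.4 ± 0.9) and Pfkm (14.1 ± 0.4) did not differ beyond their spread. These orders depend on the length. Per kilobase of coding sequence, an alternative added after seeing the data, the levels in control cells at 20% oxygen were 124 ± 4.0 for Pfkp, 59.2 ± 0.9 for Pfkfb3, 53.6 ± 3.6 for Pfkl, 40.6 ± 2.4 for Tigar and 20.1 ± 0.3 for Pfkm. At 2% oxygen they were 294 ± 7.8 for Pfkl, 265 ± 7.1 for Pfkp, 84.6 ± 3.8 for Pfkfb3, 62.4 ± 1.1 for Pfkm and 25.0 ± 0.9 for Tigar. Pfkfb3 thus stood above Pfkm by coding length and below it by exon union.

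Around the phosphofructokinase step the oxygen response ran the same way, and the knockout response was sparser. Of 8 tested genes that bring glucose to this step, 7 rose and 1 fell with low oxygen in control cells (median log2 1.66), among them the glucose carriers Slc2a3 (log2 2.77 ± 0.05) and Slc2a1 and the isomerase Gpi1, which makes the substrate (log2 2.09). Of 12 tested genes after the step, 11 rose and 1 fell in control cells (median 2.23), and 10 rose and 0 fell in MCT4-KO cells (median 2.35), among them Aldoc (log2 4.65 in control cells), an aldolase that splits the product, and Pkm (log2 2.25). The rise of Pfkl in control cells, 2.46, was near the medians of the genes after the step, while Pfkm, Pfkp, Pfkfb3 and Pfkfb4 rose less than the median of the genes after the step. In MCT4-KO against control cells 5 of the 12 were lower and 0 higher at 20% oxygen (median -0.16), and 5 lower and 1 higher at 2% (median -0.13). Of the 9 tested genes of the pentose phosphate pathway, which shares fructose 6-phosphate with phosphofructokinase and which TIGAR is known to favour, 8 rose and 1 fell with low oxygen in control cells (median 0.53). In MCT4-KO against control cells at 2% oxygen 1 of these 9 was higher, the entry enzyme G6pdx (log2 0.39, edgeR adjusted p = 5.58e-07), and 1 lower, Pgls (log2 -0.16, edgeR adjusted p = 0.00607). Beside these counts, 38.7% of all tested genes were called higher and 39.6% lower with low oxygen in control cells, 37.7% and 38.7% in MCT4-KO cells, 4.96% and 4.8% in the knockout at 20% oxygen and 19.4% and 19.1% at 2% oxygen.

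**Figure D5:**
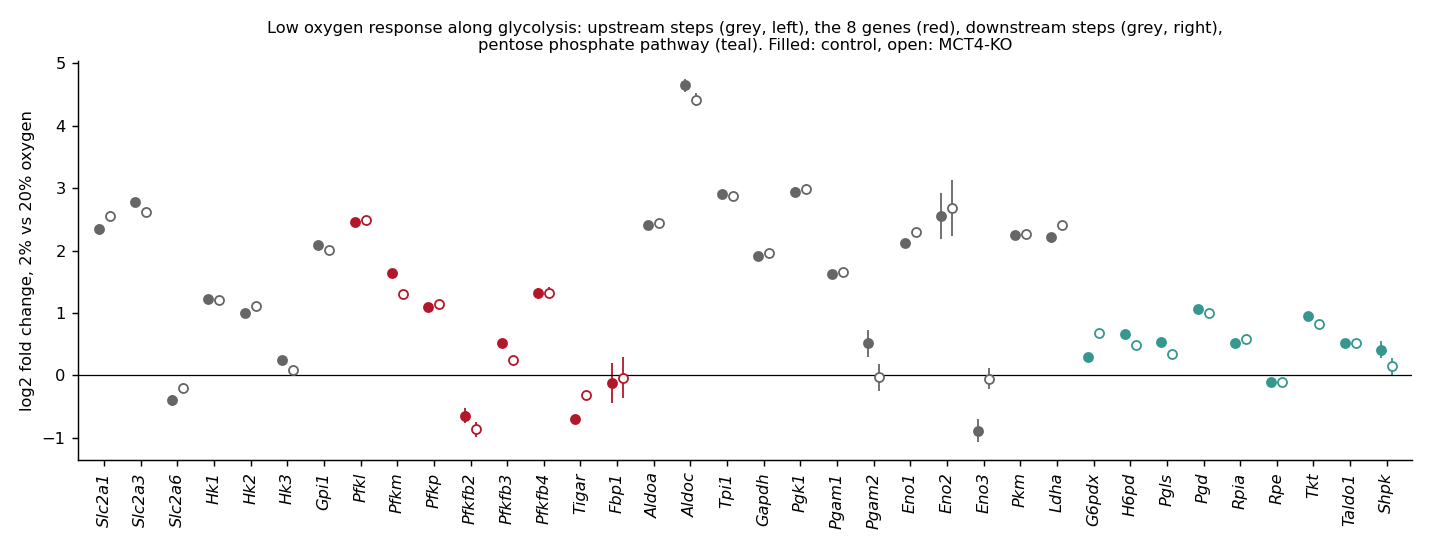
Log2 fold change ± SE at 2% against 20% oxygen (y axis) of 7 of the 8 tested genes before the phosphofructokinase step (grey, left), the 8 genes (red), genes after the step (grey, right) and pentose phosphate pathway genes (teal), in control (filled) and MCT4-KO (open) cells. Pfkl sits among the genes after the step, and Pfkfb2 and Tigar are below 0.

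Among 4 tested genes of gluconeogenesis other than Fbp1, 3 rose and 1 fell with low oxygen in each genotype; Pcx (log2 1.78) and Slc37a4 (log2 1.43) rose and Pck2 fell by 0.35 on the log2 scale in control cells. Of 14 genes for kinases and ubiquitin ligases known to act on PFKFB proteins, 7 rose and 4 fell in control cells, with a median of 0.03 that turned to -0.17 (3 rose and 8 fell) with library sizes alone, beside 38.7% higher and 39.6% lower of all tested genes. Rps6ka1, a kinase known to phosphorylate PFKFB3 in other settings, rose by 0.77, and Fzr1, which directs PFKFB3 to the proteasome, by 0.47. In MCT4-KO against control cells at 2% oxygen, 2 of these 14 genes were lower and 1 higher, beside 19.1% and 19.4% of all tested genes. The lower ones were Prkag1 and Prkag2, regulatory subunits of the AMP-activated kinase (log2 -0.20 and -0.29). The higher one was Pdpk1 (log2 0.13). The other listed subunits of the AMP-activated kinase were not called. Of 8 genes for hypoxia-inducible factors and their oxygen sensors, 5 rose and 2 fell in control cells. The sensors Egln3 (log2 3.32) and Egln1 (log2 1.54) and the factor subunit Epas1 (log2 2.91) were among those that rose. At 2% oxygen 4 of these 8 were lower in MCT4-KO cells, beside 19.1% of all tested genes. They were Vhl (log2 -0.50) and Egln1 (log2 -0.22), both of the machinery that degrades the factors, Hif1an (log2 -0.16), which restrains their activity, and Epas1 itself (log2 -0.48). The subunit Hif1a was higher (log2 0.21). Of 12 genes of p53 and its textbook targets, 3 were higher, near the 19.4% of all tested genes, and 0 lower in MCT4-KO cells at 2% oxygen, Zmat3 (log2 0.60), Ccng1 (log2 0.17) and Trp53 (log2 0.13), and 5 rose and 6 fell with low oxygen in control cells. Of 8 housekeeping genes 5 rose and 2 fell with low oxygen in control cells (median 0.26, or 0.05 with library sizes alone) and 6 rose and 1 fell in MCT4-KO cells (median 0.33), beside which the rise of Pfkfb3 in MCT4-KO cells, 0.25, was no larger.

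Likeness was measured over the 4 group means of 9060 genes as the root mean square difference of log2 CPM, each gene centred on its own mean; it is a description over 4 points. Closest to Pfkl were the aldolase Aldoa (0.0567), Fam102a (0.0621) and Pdk1 (0.0739), the kinase that restrains pyruvate dehydrogenase, and 7 genes lay within 0.1. Closest to Pfkm were Mical3 (0.0179) and Rnf181, with 47 genes within 0.1, and closest to Pfkp were Tagln2 (0.0148), Gnai2 and Homer1, with 163. The hexokinase Hk1 (0.0228) was among the 3 closest to Pfkfb4, after Tuba8 and Tomm6, with 127 genes within 0.1. Tigar was closest to Abcf2 (0.0123), Usp10 and Mrps2, with 443 genes within 0.1. Patterns of small amplitude had many near matches: 357 genes for Pfkfb2, 1020 for Pfkfb3 and 1143 for Fbp1. The added 0.5 CPM was near the level of Fbp1, with group means of 0.467 to 0.601 CPM, and flattened its pattern.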

How the data were processed

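RNA of 16 libraries was selected by poly(A) and made into libraries with NEBNext reagents, per the labels' protocols. The authors deposited 1 table of expected counts per Ensembl gene. Per the submitters' processing notes, reads were handled with HISAT2 and RSEM on mm10. Tool versions, gene annotation and strand setting were not given in the sources used here. Non-whole values (10.1%) were rounded like all others. Symbols, exon unions and overlaps came from GENCODE vM21 (GRCm38), which matched all but 95 identifiers (0.0103% of the counts), and promoter sequences from RefSeq (GRCm38).

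Genes were filtered with filterByExpr, scaled by TMM and tested by edgeR 4.0.16 (R 4.3.3), fitting a mean for each group to the 16 libraries together (12 degrees of freedom left, coefficient of variation between libraries 4.61%), a quasi-likelihood F-test and Benjamini-Hochberg adjustment over 13774 genes in each of 5 comparisons. Adjusted p-values under 0.05 are called, also where a sentence names no tool. The script was tested on simulated data. A count of 0 allows up to 3 counts, and such limits cover counting error only. The levels are relative, since no spike-in is described. Fewer cells of a type and less RNA per cell cannot be told apart.

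The members, the lists, the tests and the alternatives were chosen with earlier results of these data known. Named genes are the 8 members, Pfkfb1, Fbp2, Slc16a3, up to 3 called genes of each list with the smallest adjusted p in a comparison, and the 3 genes most like each member. Genes named with an overlap, as cell type markers or as drawn in a plot are outside this rule. So is Hif1an, named to complete the genes of its list that were lower in MCT4-KO cells at 2% oxygen. Near copies were searched for the members with BLAST+ 2.17.0 (at least 100 bases at 95% identity), and none was found outside overlapping genes; they were not searched for list genes. Alternatives used DESeq2 1.42.0, limma 3.58.1, other scalings, filters and sample sets. Replicate numbers were not taken to pair the libraries, and the labels do not say whether they do. Some results are not reported here.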

Additional observations from a re-analysis of the deposited data

Results flagged for a closer look

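Of 32 groups of 4 libraries examined for a library far from the others, 1 was flagged: MCT4-KO replicate 2 at 2% oxygen, with 594.6 CPM of Pfkl, above the other 3 libraries at 571 to 573 CPM. Chance flags about 1 in 20 such groups. Leaving it out did not change a call of Pfkl.

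The knockout effect differed between oxygen levels for 3 members by the interaction test of edgeR. For Pfkm the effect at 2% minus that at 20% oxygen was -0.325 on the log2 scale, for Pfkfb3 it was -0.27, and for Tigar it was 0.383. All 4 MCT4-KO libraries lay outside the control range at 2% oxygen in the named direction for each of these genes.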

How the results depend on the processing

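The 987 recomputed changes of the 8 members gave 962 with the same call, 24 that were no longer called, 1 that was newly called and 0 that reversed while called. The 962 include changes that were called in neither fit and that changed sign. With a minimum fold of 1.5 the calls over all genes fell to 13 and 37 for the knockout at 20% and 2% oxygen, 4077 and 3462 for low oxygen in control and MCT4-KO cells, and 3 for the interaction. Members called in the knockout comparisons and the interaction were then 0 (also 0 at an unadjusted p under 0.05, against 2, 4 and 3 by limma-voom and by DESeq2), because that test asks for larger changes. With the compared groups alone, 1 member in place of 2 was called at 20% oxygen, Pfkfb3 being lost (adjusted p = 0.0729).

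Leaving out each library in turn gave 899 to 1708, 4586 to 5392, 10544 to 10816, 10175 to 10659 and 2648 to 3356 called genes in the order above. Called members ranged from 1 to 2 at 20% oxygen and 3 to 5 at 2% oxygen, and stayed at 7, 7 and 3 in the others. Scaling by library size alone moved the median of all genes to -0.22 and -0.19 in the low oxygen comparisons, and the share of calls that were higher from 49.4% and 49.3% to 35.2% and 35.4%; in the knockout comparisons and the interaction that share went from 50.8%, 50.4% and 50.6% to 60.1%, 63.1% and 60.1%. Under it Pfkfb3 was not called for the knockout at 2% oxygen (-0.09, adjusted p = 0.079) or for low oxygen in MCT4-KO cells (0.07), and Tigar's change in MCT4-KO cells was -0.50 in place of -0.32.

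Deviations of libraries with the same replicate number correlated by -0.0929 to 0.16, over 0.1 for only 2 pairs, so the numbers were not taken to pair the libraries. With the replicate block 1059, 4984, 10706, 10418 and 2781 genes were called in the same order, and no member's call changed.

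Isoform shares moved with gene length, as given with them. Coding length from a protein table was not run; coding length from GENCODE was chosen after seeing the data. Depth limits Fbp1, with 45 to 60 counts a group.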
